A study of Mus musculus with 8 samples.

Results

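A set of 53 homeobox transcription factor genes outside the Hox clusters was followed in whole-brain bulk RNA-seq of adult mice. The genes were taken by symbol from a list of factors known for regional expression in the brain, and all 53 were found among the 24343 genes of the deposited table. The rule itself uses no measured value, although the set was drawn up with earlier results of these data known. They comprise 4 Dlx, 8 Lhx, 6 Pax, 2 Six-family, 4 Nkx, 4 Irx, 2 Otx, 4 Pou3f and 2 Pou4f genes, together with the LIM homeodomain genes Lmx1a, Lmx1b and Isl1 and 13 genes of smaller families.

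Homeobox genes encode transcription factors that bind DNA through a homeodomain, a compact helical fold that prefers short AT-rich sites. Outside the Hox clusters, which pattern the hindbrain and spinal cord, families such as Dlx, Lhx, Pax, Nkx, Irx, Otx and POU divide the embryonic brain into territories and specify the neurons that arise there. Many stay on in restricted sets of adult neurons or glia and therefore serve as markers of region and cell type. Pax2, Pax5 and Pax8 keep only part of the homeodomain and bind DNA mainly through a paired domain.

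The libraries came from whole brains of 3 C57BL/6NCrl mice aged 56 to 62 days, an inbred wild-type strain, with 3 libraries each from mice 1 and 2 and 2 libraries from mouse 3. All mice were of a single condition, no treatment beyond housing is named, and the labels used here do not give their sex or what the library numbers stand for. Values are FPKM, sequenced fragments divided by transcript length and by the number mapped, so levels of different genes can be compared per length. Each gene's transcripts were summed, averaged within each mouse and then over mice, and errors are the SD over 3 mice unless stated otherwise.

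Between 1.31 and 2.02 gigabases lay on annotated transcripts in each library, and 12728 to 13006 genes reached 1 FPKM. The read length was not given, so the number of reads behind a value is unknown. In RNA from a whole brain, fewer cells of a type and less RNA per cell cannot be told apart. Neuronal markers (Snap25, Syt1, Slc17a7 and Slc32a1) summed to between 1352 and 1691 FPKM, and none of the markers examined for brain cell types and regions was at 0 in all libraries. Markers of pituitary, a gland at the edge of the dissection, summed to at most 3.17 FPKM, whereas those of choroid plexus summed to between 322 and 566 FPKM.

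Most of the 53 genes were expressed at low levels, and 3 of them accounted for 40.3% of the summed signal of 135 ± 8.42 FPKM. Meis2, a TALE-class factor of striatal, olfactory and other neurons, was highest at 28.9 ± 2.47 FPKM. Pou3f3 (also known as Brn1), a POU factor of upper-layer cortical neurons, followed at 13.7 ± 0.760 FPKM, and Lhx2, which specifies cortex and hippocampus, at 11.7 ± 0.609 FPKM. These were the 3 genes at or above 10 FPKM, and the ranges of their mouse means did not overlap with each other or with the next gene. A further 24 genes lay between 1 and 10 FPKM, 19 between 0.1 and 1 FPKM and 7 below 0.1 FPKM.

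**Figure D1:**
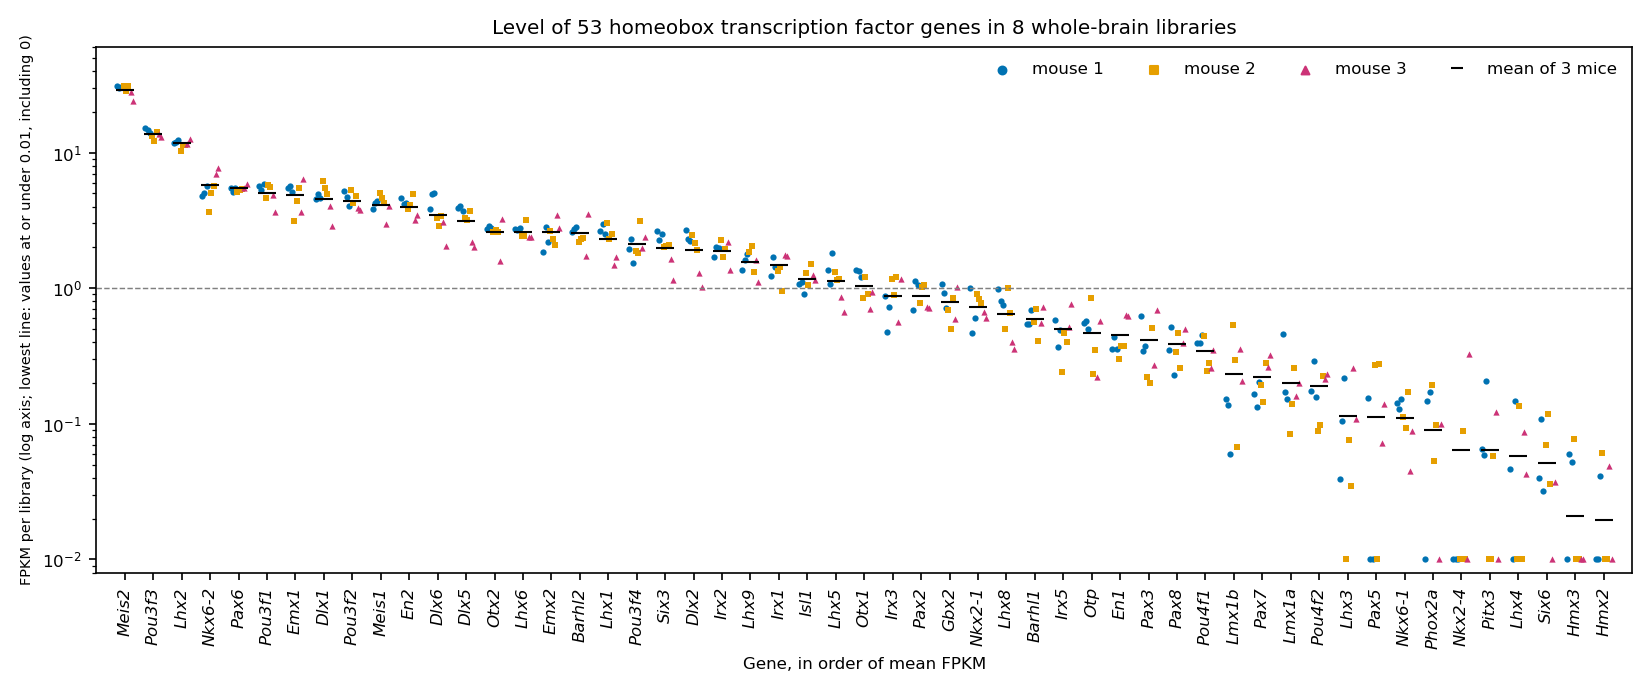
FPKM of each of the 53 genes (log axis, genes in order of mean) in the 8 libraries, coloured by mouse, with the mean of the 3 mice as a bar and 1 FPKM as a dashed line. Meis2, Pou3f3 and Lhx2 stand above the rest, and points on the lowest line are values at or under 0.01 FPKM, including 0.

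The share of the set with at least 1 FPKM was 50.9% (27 of 53), against 53.4% of all genes in the table, and the median level was 1.04 FPKM against 1.54 FPKM over all genes. Otx1, at 1.04 ± 0.246 FPKM, was the last gene inside this limit and Irx3, at 0.883 ± 0.196 FPKM, the first outside it. In 44 genes every library gave a value above 0, 9 were listed at 0 in some libraries, and 0 were listed at 0 in all. Among the 39 genes with a single transcript, the lower confidence bound that the authors deposited was above 0 in all libraries for 26 genes and in no library for 8. The spread between mice was a median coefficient of variation of 14.1% over the 27 genes with at least 1 FPKM, compared with 12.2% over the 7052 genes of the table between 1 and 10 FPKM.

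Summed by family, the Pou3f genes were highest with 25.3 ± 1.60 FPKM, followed by Lhx with 20.1 ± 1.34 FPKM and Dlx with 13.1 ± 3.34 FPKM. Pax (7.45 ± 0.254 FPKM), Nkx (6.65 ± 1.32 FPKM), Irx (4.74 ± 0.257 FPKM) and Otx (3.64 ± 0.435 FPKM) came next, then Six-family genes with 2.02 ± 0.564 FPKM and Pou4f with 0.536 ± 0.0820 FPKM. Among neighbours in this order, Pax and Nkx overlapped in the ranges of their mouse means and the others did not. These differences were not tested, and the order is given as a description.

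**Figure D2:**
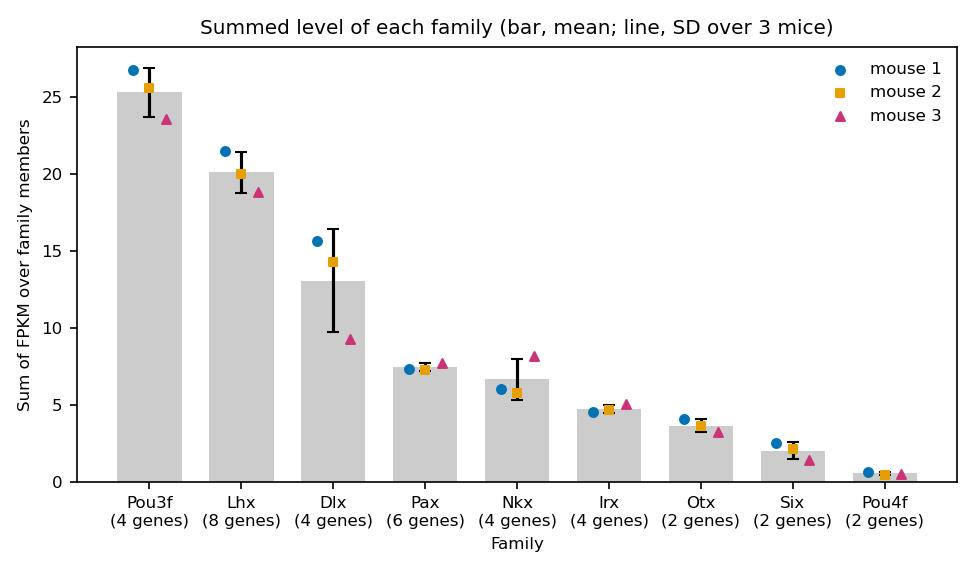
Summed FPKM of each family, with the bar at the mean and the line at the SD over 3 mice, and points for the mouse means. The Pou3f, Lhx and Dlx sums are above all others. Mouse 3 is lowest for the Pou3f, Lhx, Dlx, Otx and Six-family sums and highest for Pax, Nkx and Irx.

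Each family sum rested on few genes. In the Pou3f family of neural POU factors, Pou3f3 made up 54.2% of the sum, with Pou3f1 at 5.06 ± 0.724, Pou3f2 at 4.41 ± 0.516 and Pou3f4 at 2.12 ± 0.184 FPKM, and all 4 genes were above 1 FPKM. The Lhx family of LIM homeodomain factors was led by Lhx2 with 58.1%. Lhx6, which marks interneurons from the medial ganglionic eminence, followed at 2.60 ± 0.188 FPKM, then Lhx1 (2.31 ± 0.623), Lhx9 (1.56 ± 0.187), Lhx5 (1.13 ± 0.332) and Lhx8 (0.648 ± 0.242), whereas Lhx3 and Lhx4, factors of motor neurons and pituitary, were at 0.113 ± 0.0731 and 0.0580 ± 0.0112 FPKM. Of the remaining LIM homeodomain genes, Isl1, a factor of cholinergic and striatal neurons, was at 1.17 ± 0.131 FPKM, while Lmx1b and Lmx1a, needed for midbrain dopamine neurons, were at 0.233 ± 0.102 and 0.200 ± 0.0528 FPKM.

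The 4 Dlx genes, which drive the fate of forebrain GABAergic neurons, were close to one another in level. Dlx1 was at 4.57 ± 1.04, Dlx6 at 3.46 ± 1.05, Dlx5 at 3.13 ± 0.914 and Dlx2 at 1.91 ± 0.671 FPKM, and Dlx1 held 35.0% of the sum, the smallest share of a leading gene in any family. They lie in convergent pairs, Dlx1 and Dlx2 9.43 kb apart on chromosome 2 and Dlx5 and Dlx6 9.83 kb apart on chromosome 6. Within a pair the levels differed by a ratio of 2.39 for Dlx1 to Dlx2 and 1.11 for Dlx6 to Dlx5. Of the Irx genes, which also lie in clusters, Irx2 (1.88 ± 0.105 FPKM) and Irx1 (1.48 ± 0.255 FPKM) on chromosome 13 were above Irx3 (0.883 ± 0.196 FPKM) and Irx5 (0.498 ± 0.135 FPKM) on chromosome 8.

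Other families were dominated by a single gene. Pax6, which is active in cerebellar granule cells and in olfactory bulb neurons, held 73.0% of the Pax sum at 5.44 ± 0.229 FPKM, followed by Pax2 (0.878 ± 0.134), Pax3 (0.412 ± 0.0879), Pax8 (0.389 ± 0.0504), Pax7 (0.222 ± 0.0641) and Pax5 (0.113 ± 0.0657 FPKM). Nkx6-2, expressed in oligodendrocytes, held 86.5% of the Nkx sum at 5.75 ± 1.36 FPKM, while Nkx2-1 was at 0.723 ± 0.104 FPKM, Nkx6-1 at 0.111 ± 0.0395 FPKM and Nkx2-4 at 0.0645 ± 0.0876 FPKM. Six3, a factor of the anterior forebrain and of striatal neurons, held 97.5% of the Six-family sum at 1.97 ± 0.541 FPKM, with Six6 at 0.0510 ± 0.0290 FPKM. Otx2 (2.60 ± 0.192 FPKM), a factor of midbrain and of choroid plexus, held 71.6% of the Otx sum, and Pou4f1, a marker of the medial habenula, held 64.7% of the Pou4f sum at 0.346 ± 0.0590 FPKM, with Pou4f2 at 0.189 ± 0.0460 FPKM.

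Among the members of smaller families, the cortical genes Emx1 and Emx2 were at 4.90 ± 0.546 and 2.59 ± 0.481 FPKM, Meis1 at 4.09 ± 0.576, En2 at 3.98 ± 0.583 and Barhl2 at 2.54 ± 0.229 FPKM. Gbx2 (0.796 ± 0.111 FPKM), a factor of the thalamus, Barhl1 (0.596 ± 0.0436 FPKM), Otp (0.471 ± 0.0705 FPKM), a factor of neuroendocrine hypothalamic neurons, and En1 (0.454 ± 0.153 FPKM) were below 1 FPKM. Phox2a, which specifies noradrenergic neurons, was at 0.0900 ± 0.0350 FPKM and Pitx3, a factor of midbrain dopamine neurons, at 0.0636 ± 0.0454 FPKM. Hmx3 and Hmx2, neighbours on chromosome 7 with roles in the hypothalamus, were lowest at 0.0210 ± 0.0191 and 0.0195 ± 0.00543 FPKM, and each was listed at 0 in 5 of the 8 libraries. The order of these lowest genes rested on single libraries. Without library 2 of mouse 3, Nkx2-4 was at 0.00979 FPKM and below both, and with a library left out Hmx3 ranged from 0.0124 to 0.0272 FPKM (lowest without library 1 of mouse 2) and Hmx2 from 0.0114 (without library 1 of mouse 3) to 0.0277 FPKM.

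Grouped by the region for which each gene is known, the levels spanned a wide range. Emx1, Emx2, Lhx2, Otx1 and Pou3f1, genes of cortex and hippocampus, summed to 25.3 ± 1.31 FPKM. The 9 genes of the forebrain GABA lineage (the 4 Dlx genes, Lhx6, Lhx8, Nkx2-1, Isl1 and Six3) summed to 20.2 ± 4.31 FPKM, and 7 cerebellar genes (Pax6, En2, Barhl1, Lhx1, Lhx5, Meis1 and Pax2) to 18.4 ± 1.91 FPKM. The 5 genes of midbrain dopamine neurons (En1, Pitx3, Lmx1a, Lmx1b and Otx2) summed to 3.56 ± 0.103 FPKM, of which Otx2 held 73.2%, and those of the hypothalamus (Otp, Nkx2-4, Six6, Hmx2 and Hmx3) to 0.627 ± 0.0224 FPKM. Many of these genes are also expressed outside the region under which they are listed, so the sums are no measure of the size of a region.

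For 14 of the 53 genes the table lists more than 1 transcript, between which the estimation had to divide reads, so only their sum is used here. Pax6 was divided among 8 transcripts, the highest of which held 41.9% of the gene's level, and Meis2 among 6, the highest with 40.2%. For Nkx6-2 a transcript annotated as non-coding (NR_027857) held 84.4% of the level and the protein-coding one (NM_183248) 15.6%. Exons of 18 members overlap those of another annotated gene, for 17 of them on the opposite strand, and whether strand was used in the estimation was not stated. Reads of the pairs Dlx1 and Dlx1as (335 shared bases, Dlx1as at 4.82 FPKM), Nkx6-2 and Inpp5a (246 bases, Inpp5a at 35.0 FPKM), Six3 and Six3os1 (106 bases, Six3os1 at 0.738 FPKM) and Dlx6 and Dlx6os2 (104 bases, Dlx6os2 at 0.0724 FPKM) can therefore not be fully told apart.

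The libraries allow one comparison, that of the individual mice, which asks how far the levels of these genes vary between brains of one strain and age. It was fitted with limma on log2(FPKM + 1) over the 13001 genes whose mean reached 1 FPKM, so differences are on that scale and understate those of low genes. Libraries of one mouse are not independent animals, and p-values therefore describe the spread between the libraries of these 3 brains only. Brain and RNA preparation are not separated in this design, so a difference between brains cannot be told apart from one of preparation. Of the 27 members tested, 6 differed between the mice at an adjusted p under 0.05 in the F-test with Benjamini-Hochberg adjustment (Dlx5, Dlx2, Lhx1, Six3, Dlx1 and Dlx6), which is 22.2% against 25.5% of all genes tested. Between mouse 2 and mouse 1, 0 of the 27 members passed the same threshold in limma, where 0.00769% of all genes (1 gene) did, and 2 had an unadjusted p under 0.05 (Dlx6, 0.0130, and Otx1, 0.0456).

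Mouse 3 was the brain that stood apart, and there 8 of the 27 members were lower than the mean of mice 1 and 2, all 4 Dlx genes among them. The others were Lhx1, Lhx5, Six3 and En2, and a single member, Nkx6-2, was higher. The 8 lower members are 29.6% of those tested, against a background of 17.5% of all genes called lower, and the 1 higher member is 3.70% against a background of 20.4% (37.9% in either direction). The contrast was negative for 18 of the 27 members, with a median of -0.18, whereas it was negative for 47.8% of all genes, with a median of 0.02 on the log2 scale. These shares are given side by side without a test, since the members were chosen with earlier results of the data known.

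RefSeq sequences from 250 bases before to 50 after the start of transcription were found for 44 of the 53 members, among them 5 of the 9 that differed in mouse 3, and these 5 are shown because the data bear on them. Positions are on GRCm38.p6, at chr2:71529195-71529494 (plus strand) for Dlx1, chr2:71546705-71547004 (minus strand) for Dlx2, chr11:84525485-84525784 (minus strand) for Lhx1, chr17:85620584-85620883 (plus strand) for Six3 and chr7:139582748-139583047 (minus strand) for Nkx6-2. Each sequence runs 5′ to 3′ along the gene, and capitals mark CCAAT or its complement ATTGG, the letters of the CCAAT box of many promoters.
Dlx1: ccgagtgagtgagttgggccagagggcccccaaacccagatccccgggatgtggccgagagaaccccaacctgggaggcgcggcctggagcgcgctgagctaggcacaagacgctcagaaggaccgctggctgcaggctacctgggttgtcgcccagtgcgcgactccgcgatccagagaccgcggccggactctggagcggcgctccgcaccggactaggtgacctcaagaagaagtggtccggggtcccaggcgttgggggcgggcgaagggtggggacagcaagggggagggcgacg
Dlx2: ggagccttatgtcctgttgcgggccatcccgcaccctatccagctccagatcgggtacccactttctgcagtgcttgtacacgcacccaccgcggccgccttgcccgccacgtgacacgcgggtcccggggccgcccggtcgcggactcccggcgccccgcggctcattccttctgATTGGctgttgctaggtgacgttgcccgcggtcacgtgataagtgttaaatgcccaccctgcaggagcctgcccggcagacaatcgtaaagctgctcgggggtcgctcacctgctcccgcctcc
Lhx1: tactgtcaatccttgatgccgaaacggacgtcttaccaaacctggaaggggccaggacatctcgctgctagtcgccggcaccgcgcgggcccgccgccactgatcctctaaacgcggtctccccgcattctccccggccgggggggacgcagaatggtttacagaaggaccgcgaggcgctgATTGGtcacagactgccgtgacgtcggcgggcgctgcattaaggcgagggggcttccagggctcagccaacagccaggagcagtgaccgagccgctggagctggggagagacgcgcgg
Six3: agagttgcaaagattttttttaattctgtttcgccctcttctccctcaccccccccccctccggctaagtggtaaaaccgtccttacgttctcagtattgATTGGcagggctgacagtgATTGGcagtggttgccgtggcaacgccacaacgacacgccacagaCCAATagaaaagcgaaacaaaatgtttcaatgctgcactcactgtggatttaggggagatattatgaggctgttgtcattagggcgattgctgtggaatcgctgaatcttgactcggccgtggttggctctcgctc
Nkx6-2: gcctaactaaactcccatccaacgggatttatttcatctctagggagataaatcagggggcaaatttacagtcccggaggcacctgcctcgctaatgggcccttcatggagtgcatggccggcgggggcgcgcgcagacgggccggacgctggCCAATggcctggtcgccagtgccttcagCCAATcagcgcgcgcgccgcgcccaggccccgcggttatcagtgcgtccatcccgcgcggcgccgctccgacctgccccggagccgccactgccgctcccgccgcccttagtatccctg

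CCAAT was found on either strand in 4 of these 5 windows, once each in Dlx2 and Lhx1, 3 times in Six3 and 2 times in Nkx6-2, and not in Dlx1. Among all members with a sequence, 21 of 44 (47.7%) held it, compared with 38.8% of the windows of 17186 genes of the table. TAATTA, a core that many homeodomains bind, was in 3 of the 44 (6.82%, Barhl1, Emx2 and Otx2) against 4.52% of all, and in none of the 5 shown. GGGCGG, the GC box, was in 27 of 44 (61.4%) against 46.8%. The windows of the members were rich in CpG, with a median of 20 CpG and 63.5% GC, compared with 13 and 56.3% over all genes.

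Dlx2 had the largest difference among the 9 genes. Its level was 2.70, 2.31 and 2.24 FPKM in mouse 1, 2.46, 2.15 and 1.91 FPKM in mouse 2, and 1.29 and 1.01 FPKM in mouse 3. Both libraries of mouse 3 were below all others, and the mean of mouse 3 was 50.2% of that of mice 1 and 2, a difference of -0.61 (SE 0.0974) on the log2 scale with an adjusted p of 0.00344 in limma. Of the 12 pairs of a library of mouse 3 with one of another mouse, the deposited confidence bounds were apart in 10. This was the highest count among the called genes with a single transcript, and it was 8 for Six3, 7 each for Dlx1 and Lhx1, 3 each for Lhx5 and En2 and 2 for Dlx6. Dlx1, its partner on chromosome 2, gave 4.54, 4.98 and 4.63 FPKM in mouse 1, 6.12, 5.52 and 4.97 FPKM in mouse 2, and 4.04 and 2.89 FPKM in mouse 3. Here too the groups did not overlap, and mouse 3 was at 67.7% of mice 1 and 2 (-0.46, SE 0.112, adjusted p = 0.0142 in limma). Without library 2 of mouse 3, the Dlx1 difference was -0.28 with an adjusted p of 0.138.

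The pair on chromosome 6 was lower in mouse 3 as well. Dlx5 was at 3.88, 4.06 and 3.71 FPKM in mouse 1, 3.30, 3.17 and 3.69 FPKM in mouse 2 and 2.21 and 2.01 FPKM in mouse 3, with no overlap. That is 58.1% of mice 1 and 2, a log2 difference of -0.57 (SE 0.0776, limma adjusted p = 0.00245), the lowest p in the set. Dlx6 gave 3.86, 4.91 and 5.07 FPKM in mouse 1, 3.28, 2.89 and 3.43 FPKM in mouse 2 and 3.09 and 2.04 FPKM in mouse 3. Its libraries overlapped, since library 1 of mouse 3 exceeded 1 library of mouse 2. The difference of -0.46 (SE 0.132, limma adjusted p = 0.0266) did not pass the threshold without library 2 of mouse 3 (adjusted p = 0.272), or without library 2 or 3 of mouse 1 (0.0555 and 0.0553). Between mouse 2 and mouse 1, Dlx6 already differed by -0.41 (means of 3.20 and 4.61 FPKM), close in size to its difference in mouse 3. Summed over the 4 genes, mouse 3 had 9.29 FPKM, which is 62.1% of the 15.0 FPKM of mice 1 and 2.

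Six3 was at 2.63, 2.26 and 2.49 FPKM in mouse 1, between 2.03 and 2.08 FPKM in mouse 2 and at 1.64 and 1.14 FPKM in mouse 3. All libraries of mouse 3 were below the others, at 61.6% of their mean (-0.45, SE 0.0930, limma adjusted p = 0.00795), and the adjusted p rose to 0.0632 without library 2 of mouse 3. With the 4 Dlx genes, Six3 brings the called members of the forebrain GABA lineage to 5 of the 7 tested, beside 17.5% of all genes called lower. This grouping too was made with earlier results known. The other 2, Lhx6 and Isl1, had log2 differences of -0.13 (SE 0.0911) and 0.03 (SE 0.0937) with limma adjusted p of 0.295 and 0.803.

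**Figure D3:**
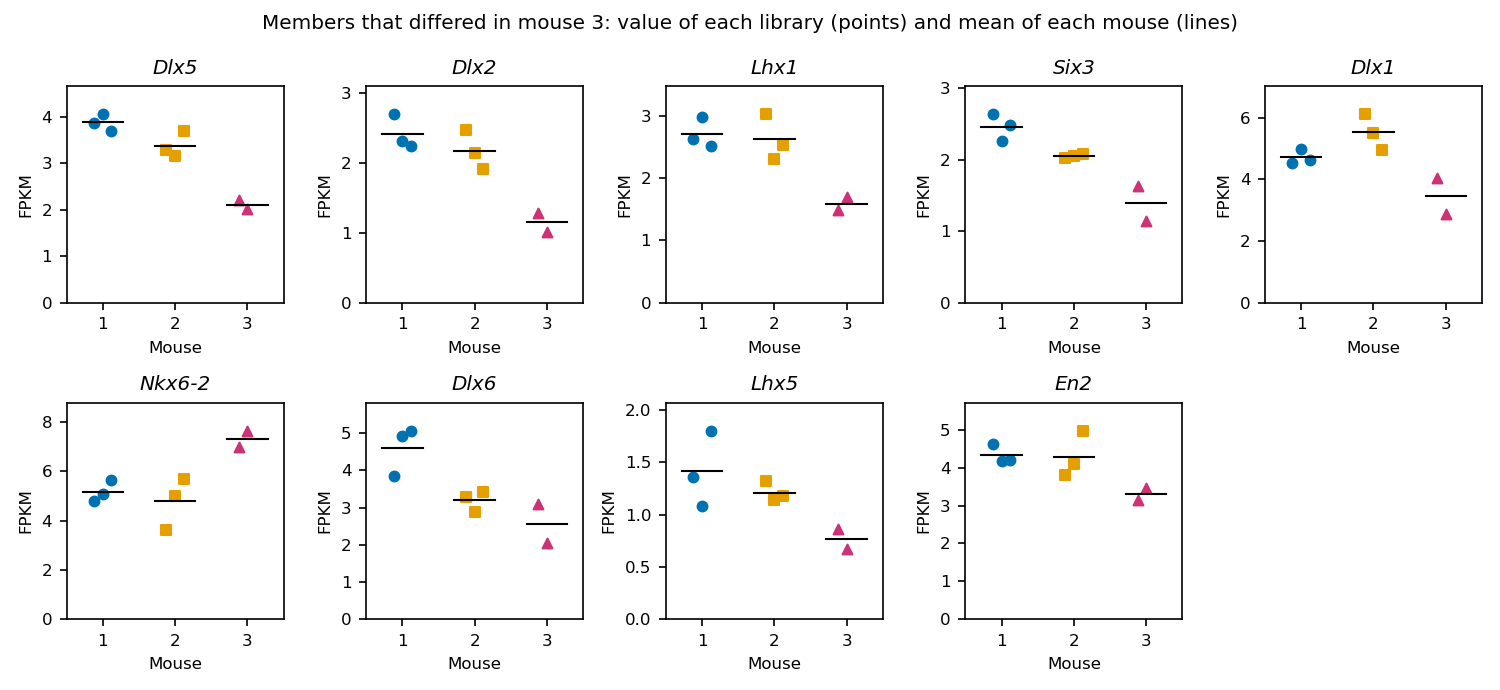
FPKM of the 9 genes that differed in mouse 3, with a point for each library and a line for the mean of each mouse (linear axes from 0). Libraries of mouse 3 lie below all others for Dlx5, Dlx2, Lhx1, Six3, Dlx1, Lhx5 and En2 and above them for Nkx6-2, and they overlap mouse 2 for Dlx6.

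Lhx1 and Lhx5, closely related LIM homeodomain factors that act together in Purkinje cells of the cerebellum, were both lower in mouse 3. Lhx1 was at 2.64, 2.99 and 2.52 FPKM in mouse 1, 3.03, 2.31 and 2.52 FPKM in mouse 2 and 1.48 and 1.70 FPKM in mouse 3, 59.6% of the others (-0.50, SE 0.0959, limma adjusted p = 0.00628). Lhx5 was at 1.36, 1.08 and 1.80 FPKM in mouse 1, 1.32, 1.14 and 1.18 FPKM in mouse 2 and 0.866 and 0.669 FPKM in mouse 3, 58.4% of the others (-0.38, SE 0.114, limma adjusted p = 0.0288). Neither gene had a library of mouse 3 inside the range of the other mice. The Lhx5 call was lost without library 2 of mouse 3 (adjusted p = 0.216) and without library 1 of mouse 1 (0.0530), whereas that of Lhx1 held in each of the 8 fits that left out a library.

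En2, a factor of cerebellum and midbrain, gave 4.64, 4.18 and 4.21 FPKM in mouse 1, 3.81, 4.09 and 4.98 FPKM in mouse 2 and 3.16 and 3.46 FPKM in mouse 3. The groups did not overlap, but the difference was the smallest of those called (76.7% of mice 1 and 2, -0.30, SE 0.0967, limma adjusted p = 0.0391), and it passed the threshold in only 2 of the 8 fits that left out a library. It was lost without any library of mouse 1, without library 2 of mouse 2 and without either library of mouse 3, with adjusted p between 0.0565 and 0.153. Of the cerebellar genes, 3 of the 5 tested were lower, En2 with this limit, beside 17.5% of all genes. The others, Pax6 (0.09, SE 0.0692) and Meis1 (-0.27, SE 0.106), had limma adjusted p of 0.353 and 0.0774.

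Nkx6-2 was the member that was higher in mouse 3. Its level was 4.79, 5.06 and 5.66 FPKM in mouse 1, 3.62, 5.01 and 5.71 FPKM in mouse 2 and 6.97 and 7.65 FPKM in mouse 3. Both libraries of mouse 3 were above all others, at 147% of their mean (0.48, SE 0.135, limma adjusted p = 0.0232), and the call was lost without library 1 (adjusted p = 0.0586) or library 2 (0.176) of mouse 3. Markers of oligodendrocytes, the cell type in which Nkx6-2 is known to be expressed, moved with it, since Mbp and Mog, both genes of myelin, were higher in mouse 3 (1.27 and 0.39 on the log2 scale, limma adjusted p = 0.00112 and 0.0405). Mbp was at 2836 and 3495 FPKM there, compared with 1253 to 1365 FPKM in mice 1 and 2, and Mog at 51.7 and 63.0 FPKM, compared with 34.0 to 47.3 FPKM. The part of these cells in the Nkx6-2 difference was not tested. Inpp5a, whose exons it overlaps on the opposite strand, was at 33.7 FPKM in mouse 3, compared with 35.0 ± 2.25 FPKM over the 3 mice.

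Read against the background of libraries that do not overlap, 10 of the 27 members had both libraries of mouse 3 below all 6 others, where 21.7% of all genes did, and 2 had them above, where 26.5% did. Besides 7 of the called genes, those below were Lhx6, Meis2 and Pou3f2, and besides Nkx6-2 the other above was Irx1. None of these 4 passed the test in limma (adjusted p of 0.295, 0.0685, 0.0934 and 0.113). Meis2, for example, was between 28.6 and 31.2 FPKM in mice 1 and 2 and at 28.2 and 24.0 FPKM in mouse 3, 85.9% of their mean.

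The 18 members tested that passed in neither direction had log2 differences from -0.31 (Pou3f1, SE 0.111, limma adjusted p = 0.0550) to 0.33 (Emx2, SE 0.125, adjusted p = 0.0689). Lhx2 (0.07, SE 0.0743), Pou3f3 (-0.05, SE 0.0813) and Pax6 (0.09, SE 0.0692) had the smallest errors among them. For Barhl2, a factor of spinal, retinal and diencephalic neurons, the 2 libraries of mouse 3 were far apart, at 1.73 and 3.54 FPKM around a range of 2.19 to 2.81 FPKM in mice 1 and 2. Its difference of 0.01 (SE 0.160) became 0.38 without library 1 of mouse 3 and -0.36 without library 2, with limma adjusted p of 0.00994 and 0.0364. Otx2 was likewise at 1.59 and 3.22 FPKM in mouse 3 and between 2.58 and 2.85 FPKM in the others, and its difference was -0.16 (SE 0.154, adjusted p = 0.425). Without library 2 of mouse 3 the Otx2 difference was -0.52 (limma adjusted p = 0.0192), and without library 1 it was 0.19.

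Of the 26 members below 1 FPKM, which were not tested, En1 was at 0.637 and 0.623 FPKM in mouse 3 and between 0.302 and 0.434 FPKM in mice 1 and 2. Lhx8, a factor of cholinergic forebrain neurons, was at 0.403 and 0.355 FPKM in mouse 3 and between 0.503 and 1.00 FPKM in the others. When the minimum was set to 0.1 FPKM, these were the members added to the calls, En1 as higher (0.26, SE 0.0696, limma adjusted p = 0.0263) and Lhx8 as lower (-0.36, SE 0.112, adjusted p = 0.0407). At that minimum 13.1% of all genes were lower and 15.8% higher. With no minimum, En1 still passed (limma adjusted p = 0.0123) and Lhx8 did not. The remaining genes below 1 FPKM had wide ranges, such as Lmx1b with 0.0599 to 0.539 FPKM and Otp with 0.221 to 0.840 FPKM over the 8 libraries.

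Homeobox genes outside the set, taken from a list of 71 of which 70 were in the table, were lower in level, with a median of 0.154 FPKM and 16 at or above 1 FPKM. Cux1 (23.4 ± 1.25 FPKM), a factor of upper cortical layers, was the highest of them, followed by Pou6f1 (17.6 ± 1.83 FPKM), a POU factor, and Satb1 (11.8 ± 1.43 FPKM). In mouse 3, 4 of the 16 were lower in limma, Meis3 and Satb1 among them, beside 17.5% of all genes. None were higher (0 of the 16), beside 20.4% of all genes, where 2 higher genes of the list had an unadjusted p under 0.05. Meis3, a TALE-class relative of Meis2, was at 11.4, 11.5 and 12.5 FPKM in mouse 1, 8.85, 11.1 and 9.35 FPKM in mouse 2 and 9.40 and 7.29 FPKM in mouse 3, so that its libraries overlapped those of mouse 2 (-0.33, SE 0.113, limma adjusted p = 0.0465). Satb1, a chromatin organiser of cortical interneurons, was between 12.1 and 13.2 FPKM in mice 1 and 2 and at 10.9 and 9.31 FPKM in mouse 3, with no overlap (-0.29, SE 0.0806, adjusted p = 0.0226).

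Genes of partner proteins had a median level of 9.79 FPKM over 27 genes, compared with 1.04 FPKM over the 53 members, and the levels of the lists overlapped, with Dach2 at 0.174 FPKM and Eya4 at 0.675 FPKM. Aes (187 ± 20.3 FPKM), a short Groucho-related protein, Lmo4 (76.4 ± 10.7 FPKM), which binds the LIM cofactor Ldb1, and Ssbp3 (37.9 ± 0.997 FPKM), which binds Ldb1 as well, were the highest. Of the 24 tested, 6 were lower in mouse 3, beside 17.5% of all genes, and 0 were higher in limma, beside 20.4% of all genes, where 2 higher genes of the list had an unadjusted p under 0.05. The lower ones were the LIM cofactors Ldb1 (-0.35, SE 0.0905, limma adjusted p = 0.0181) and Lmo4 (-0.30, SE 0.0886, adjusted p = 0.0303), the TALE partner Pknox2 (-0.42, SE 0.109, adjusted p = 0.0184), the Groucho corepressors Tle2 (-0.56, SE 0.126, adjusted p = 0.0105) and Tle3 (-0.33, SE 0.0709, adjusted p = 0.00948) and Dach1 (-0.48, SE 0.0833, adjusted p = 0.00470), which acts with Six-family factors.

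Transcript length moved with the difference of mouse 3 over all genes. In the fifth of genes with the shortest transcripts, up to 1573 nucleotides, the median difference was 0.41 and 2.00% of genes were lower and 46.7% higher, whereas in the fifth with the longest it was -0.21 and 40.1% were lower. Dlx6 (1071 nucleotides) and Dlx5 (1404 nucleotides) belong to the first of these classes. The other called members were between 1806 (Nkx6-2) and 3680 nucleotides (Six3). After the trend with length was removed from each library, the 4 Dlx genes remained lower, with differences of -0.47 for Dlx1, -0.64 for Dlx2, -0.76 for Dlx5 and -0.75 for Dlx6 and limma adjusted p between 0.00119 and 0.0213. Lhx1, Lhx5, Six3 and Nkx6-2 also passed, En2 did not (-0.26, adjusted p = 0.0516), and Pou3f1 did (-0.30, adjusted p = 0.0470).

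**Figure D4:**
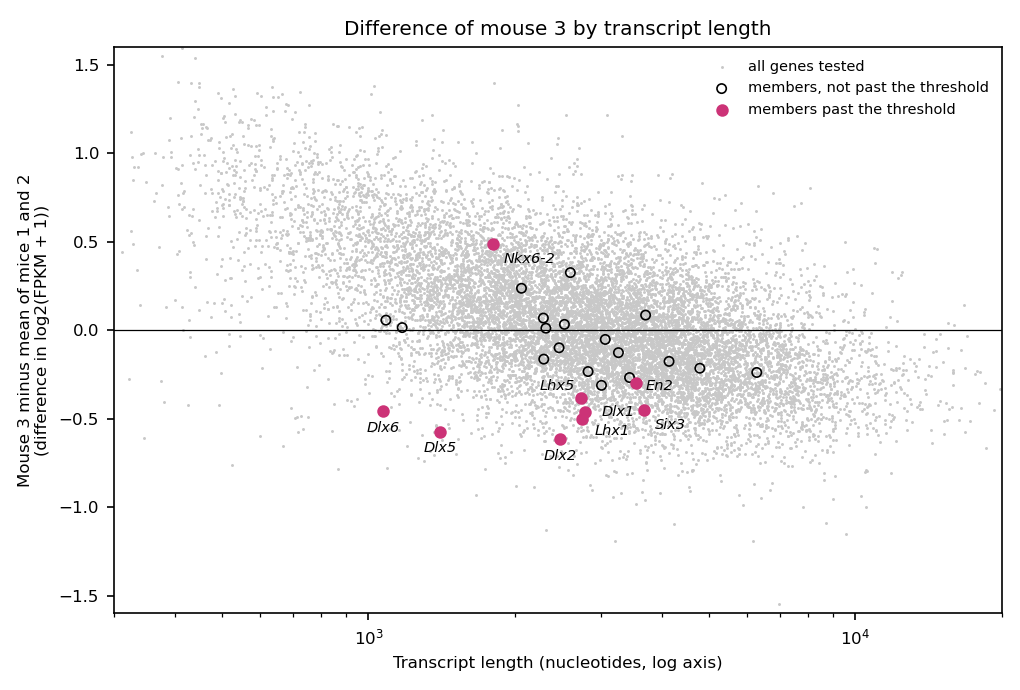
Difference of mouse 3 from the mean of mice 1 and 2 in log2(FPKM + 1) against transcript length in nucleotides (log axis), with all 13001 genes tested in grey, members past the threshold filled and other members open. Dlx5 and Dlx6 lie low among genes of their length, and 81 genes lie outside the axes.

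Mouse 3 also had the highest FPKM totals, 384885 and 409889 compared with 295541 to 345572 in the other libraries. Scaling each library to the same total (TPM) moved the median difference of all genes to -0.26 and the share of lower calls among all calls from 46.1% to 84.9%. On that scale 18 members (66.7%, against 44.2% of all genes) were lower and 0 were higher in limma, with 0 higher at an unadjusted p under 0.05. Relative to the shifted median, the differences were -0.55 for Dlx1, -0.80 for Dlx2, -0.70 for Dlx5, -0.55 for Dlx6, -0.63 for Lhx1, -0.53 for Lhx5, -0.58 for Six3, -0.36 for En2 and 0.51 for Nkx6-2, whose unshifted value was 0.25 (limma adjusted p = 0.126). TPM values are larger than FPKM (38.8 against 13.1 for the Dlx sum), so adding 1 shrinks differences of low genes less. The sizes on the 2 scales can therefore not be compared directly.

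Some markers of several cell types differed in mouse 3, and their part in the results on the members was not tested. Over all genes, 17.5% were called lower and 20.4% higher, and with so few genes per list the counts are no measure of a cell type or region. Besides Mbp and Mog, the astrocyte genes Aqp4, Gja1 and Slc1a3 were all higher, with a sum of 397 to 415 FPKM in mouse 3 and 276 to 291 FPKM in mice 1 and 2. Of the neuronal markers, 1 of 4 was lower (Syt1, -0.73, SE 0.0863, limma adjusted p = 0.00184), and Slc32a1, the vesicular GABA transporter, was at 28.4 and 22.9 FPKM in mouse 3 and between 24.9 and 36.5 FPKM in the others (-0.33, SE 0.124, adjusted p = 0.0651). In the striatum list 2 of 5 were lower (Ppp1r1b and Rgs9), with a sum of 105 to 124 FPKM in mouse 3 and 126 to 149 FPKM in mice 1 and 2. In the cerebellum list of 5, Calb1 was lower and Pcp2 higher, both being Purkinje cell genes. The sum of that list was 275 to 405 FPKM in mouse 3, compared with 265 to 306 FPKM in mice 1 and 2. For olfactory bulb, Eomes was lower and Doc2g higher, of 4 tested. For thalamus 1 of 3 was lower (Tcf7l2) and for choroid plexus 1 of 5 (Kl). Higher were 1 of 5 for hypothalamus (Pmch), 1 of 3 for midbrain dopamine neurons (Aldh1a1), 1 of 2 for microglia (Cx3cr1) and Cldn5, the only endothelial gene. The other genes of these lists did not pass in limma, and in the choroid plexus and midbrain lists some had the opposite sign. In addition, 0 of 3 brainstem genes and 0 of 1 pituitary gene passed in limma, with 0 at an unadjusted p under 0.05.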

How the data were processed

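The authors deposited FPKM values, with lower and upper confidence bounds, for 34535 RefSeq transcripts in 8 libraries, and the deposited coverage gives how often each base of a transcript was read, as estimated. Per the submitters' processing notes, TopHat, Cufflinks and the build mm10 were used, and versions, strand setting and read length are not given in the sources used here. Samples with an RNA integrity score above 8 had been kept. Depth was taken as coverage multiplied by length. Such values are not counts, so no counting interval was computed.

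FPKM was summed over the transcripts of each gene and averaged within mice. Groups were the labelled mice. Differences were tested with limma 3.58.1 in R 4.3.3 on log2(FPKM + 1) for genes whose mean reached 1 FPKM, by the F-test over 3 mice and the contrast of mouse 3 with the mean of mice 1 and 2, with Benjamini-Hochberg adjustment over 13001 genes and a threshold of 0.05. No replicate block was used. The share of false calls at this threshold was not tested in these libraries. The trend with length was removed by lowess with a fraction of 0.3.

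All 53 members could be named, called members were given in every library, and of the lists of other homeobox genes and partner proteins the 3 highest and those called in mouse 3 were named, apart from some genes that are not reported here. The members, lists, tests and the contrast of mouse 3 were chosen with earlier results of these data known. Overlapping exons come from GENCODE M21 and promoters from RefSeq on GRCm38.p6. Protein sequences were not used here. Python 3.11.15, pandas 2.3.3, statsmodels 0.14.6 and matplotlib 3.10.9 were used. Alternatives were other pseudocounts, minimum levels, TPM, removal of the length trend, the highest transcript, a variance trend, a replicate block, other means and leaving out each library.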

Additional observations from a re-analysis of the deposited data

Results flagged for a closer look

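In each of 63 series of values (the 53 genes and the 10 family sums), the highest and lowest of the 8 libraries were compared with the nearest other by Dixon's ratio, against its 95% critical value. Chance alone flags about 1 in 20 such groups, and 5 were flagged, 4 of them single genes. Lmx1a was at 0.456 FPKM in library 1 of mouse 1, and the next library was at 0.259 FPKM. Nkx2-4, a hypothalamic factor, was at 0.328 FPKM in library 2 of mouse 3, with the next at 0.0881 FPKM and 6 libraries at 0. Otx2 was low at 1.59 FPKM in library 1 of mouse 3, where the next was 2.58 FPKM, and the Otx family sum, of which Otx2 is the larger part, was low in the same library at 2.29 FPKM with the next at 3.43 FPKM. Meis2, the highest gene of the set, was low at 24.0 FPKM in library 2 of mouse 3, and the next was the other library of mouse 3 at 28.2 FPKM.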

How the results depend on the processing

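Read numbers are unknown, mouse 3 has 2 libraries, and the animals are 3. Alternatives covered other pseudocounts, minimum levels, scalings, transcript summaries and means, and each library left out. Removing the length trend, using a variance trend and, an alternative chosen after seeing the data, centring each library on its median gave 8, 8 and 9 lower members and 1 higher member each. In these settings, 15.7%, 17.6% and 18.1% of all genes were lower and 16.1%, 20.7% and 23.2% were higher. The number of members differing between the 3 mice was 14 under TPM, and 0 to 7 with a library left out, 0 without library 2 of mouse 3, where 126 of all genes and, at an unadjusted p under 0.05 in limma, 10 members were called, and 3 without library 3 of mouse 1. Under TPM, 5493 of all 13001 genes differed between the mice. The number lower in mouse 3 was 18 under TPM (66.7%, against 44.2% of all genes). It was 9 of 46 members with a minimum of 0.1 FPKM (19.6%, against 13.1%) and 7 of 53 with none (13.2%, against 11.5%). With a library of mouse 1 or 2 left out it was 6 to 10 (22.2% to 37%, against 12.8% to 20.7%). Of all genes, 15.8% were higher with a minimum of 0.1 FPKM, 12.7% with none, 7.88% under TPM and 18.1% for the highest transcript. The number higher was 2 with a minimum of 0.1 FPKM or none (Nkx6-2 and En1), 0 under TPM and for the highest transcript (Nkx6-2 at 0.67, limma adjusted p = 0.0562, with 0 and 3 at an unadjusted p under 0.05), and 0 to 2 with a library left out (2 without library 2 of mouse 1, Emx2 added, and 0 without library 2 of mouse 3, with 1 at an unadjusted p under 0.05).

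Differences of members that were not called changed sign as follows, and the cause was not tested. Under TPM they were -0.26 for Barhl2, -0.26 for Emx1, -0.18 for Isl1, -0.22 for Lhx2 (which then passed as lower, limma adjusted p = 0.0406), -0.19 for Pax6 and -0.18 for Pou3f4. With the length trend removed they were -0.037 for Barhl2, -0.29 for Emx1 and -0.22 for Pou3f4, and with a pseudocount of 0.1 it was -0.0057 for Barhl2. With a library left out the ranges were -0.36 to 0.38 for Barhl2, -0.31 to 0.34 for Emx1, -0.31 to 0.12 for Irx2, -0.0063 to 0.072 for Isl1, -0.52 to 0.19 for Otx2 and -0.042 to 0.16 for Pou3f4.

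Family sums under TPM are in another unit and were 74.0 for Pou3f, 58.7 for Lhx, 63.3 for all LIM homeodomain genes, 38.8 for Dlx, 21.6 for Pax, 19.0 for Nkx, 13.8 for Irx, 10.6 for Otx, 5.99 for Six-family genes and 1.56 for Pou4f, in the same order. With the highest transcript of each gene, the sums were 16.9 for Lhx, 18.6 for LIM homeodomain, 4.35 for Pax and 2.83 for Otx, and Nkx and Irx came above Pax. The median member of a family was at 4.73 FPKM for Pou3f, 3.29 for Dlx, 1.82 for Otx, 1.35 for Lhx, 1.18 for Irx, 1.13 for LIM homeodomain, 1.01 for Six-family genes, 0.417 for Nkx, 0.400 for Pax and 0.268 for Pou4f.

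The library numbers were treated as names. Deviations of same-numbered libraries correlated by 0.00276 to 0.107, and only library 3 of mice 1 and 2 exceeded 0.1. Those of differently numbered libraries correlated by -0.135 to 0.0645. With the number as a replicate block, 6 members (22.2%) differed between the mice, where 2995 of 13001 genes did. Nkx6-2 took the place of Dlx6 (limma adjusted p of the F-test 0.0210 and 0.0525). In mouse 3, 6 members were lower (22.2%, against 13.5% of all genes) and 1 was higher (3.7%, against 21.6%). Dlx6 and En2 did not pass as lower (limma adjusted p of 0.0622 and 0.0946).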
